A study of Mus musculus with 6 samples.

Results

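The collagen chain genes are the 44 rows, of 55291 in the deposited table, whose symbol consists of Col, a type number, the letter a and a chain number. They were followed in marrow flushed from the femurs of 3 P2rx7 knockout mice, lettered A to C, and 3 wild-type mice, numbered WT 1 to 3, aged 6 to 8 weeks, with 1 library per mouse. The series compares the genotypes under a title that concerns ATP sensing by this receptor, bone ageing and mesenchymal stromal cells (MSCs). P2rx7 encodes an ATP-gated cation channel. The labels name no strain or sex, and do not say whether the deletion is in every cell or which exons it removes. Library totals were 18716704 to 23575652 counts. P2rx7 itself fell to 6.41 ± 0.195 FPKM in knockouts, against 10.3 ± 0.232 FPKM in WT mice (SD, n = 3 each). By edgeR's quasi-likelihood test the log2 fold change of P2rx7 was -0.67 with an SE of 0.05 and an adjusted p of 0.0109. FPKM is the count divided by the summed exon length in kilobases and scaled to the size of the library.

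Collagens are trimeric proteins of the extracellular matrix in whose helical parts glycine recurs at the start of each Gly-X-Y triplet. Fibrillar collagens, chiefly type I in bone and type II in cartilage, assemble into the fibrils that mineralise or bear load, while type IV forms the sheet of basement membranes and the FACIT collagens coat fibril surfaces. Osteoblasts, marrow stromal cells, chondrocytes, endothelial cells and smooth muscle cells are known producers of different sets of chains.

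The labelled tissue was checked against marker genes before the chains were examined. The globin genes Hba-a1 and Hbb-bs, which dominate erythroid cells, were at 0 to 0.324 FPKM in the 6 libraries. Ptprc, the leukocyte antigen CD45, was at 11.3 to 12.3 FPKM. Blood-cell genes as a list were less even. The 8 haematopoietic markers summed to 36.0, 155 and 122 FPKM in knockouts A, B and C. Their sums were 43.5, 25.6 and 85.5 FPKM in WT 1, 2 and 3. Among them Mpo was at 53.1 ± 34.3 FPKM in knockouts and 16.3 ± 15.4 FPKM in WT mice (SD, n = 3 each). Of the 5 tested markers, 2 had positive and 3 negative log2 fold changes. Acta2, the smooth muscle actin also made by activated stromal cells, was at 1243 to 2335 FPKM and the stromal chemokine Cxcl12 at 164 to 594 FPKM. The libraries thus held far more RNA of these genes than of the globin genes, and the labels do not say whether cells were cultured or blood cells removed. Traces of other tissues also differed between libraries: Gh (growth hormone) had 23 counts in knockout A, 0 in knockouts B and C and 54 to 82 in WT mice, whereas the counts of Alb (albumin) were 46 in knockout B, 36 in knockout C and 0 elsewhere. Fits restricted to the 4 libraries with more Gh than Alb counts, or with the set as a term, rest the genotype difference on knockout A alone. The spread then comes from the WT mice, joined by knockouts B and C where the set is a term, and the lone knockout is assumed to vary like them.

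Collagen transcripts made up 3.22%, 3.02% and 3.42% of all counts in knockouts A, B and C, against 3.22%, 3.48% and 3.71% in WT 1, 2 and 3. The genotypes overlapped, since knockouts A and C were at or above WT 1. The 44 chains summed to 3766 ± 223 FPKM in knockouts and to 4115 ± 301 FPKM in WT mice (SD, n = 3 each). In these bulk samples, fewer cells of a type and less RNA per cell cannot be told apart. Fibrillar chains accounted for 67.4 ± 0.266% of the summed collagen FPKM in knockouts and 71.6 ± 3.20% in WT mice. The 3 knockouts lay within 67.1% to 67.6%, below WT 1 at 68.8%, WT 3 at 70.8% and WT 2 at 75.1%. Beaded filament chains, those of type VI, held 13.3 ± 0.310% in knockouts and 10.9 ± 1.71% in WT mice, with WT 2 lowest at 8.96%. Network-forming chains held 3.68 ± 0.366% and 2.74 ± 0.428%, basement membrane chains 9.39 ± 0.406% and 8.57 ± 1.10%, and FACIT chains 5.36 ± 0.522% and 5.51 ± 0.176%, in knockouts and in WT mice. Shares of one total depend on each other, so a larger fibrillar share leaves less for the other groups. No test was made of these sums.

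**Figure D1:**
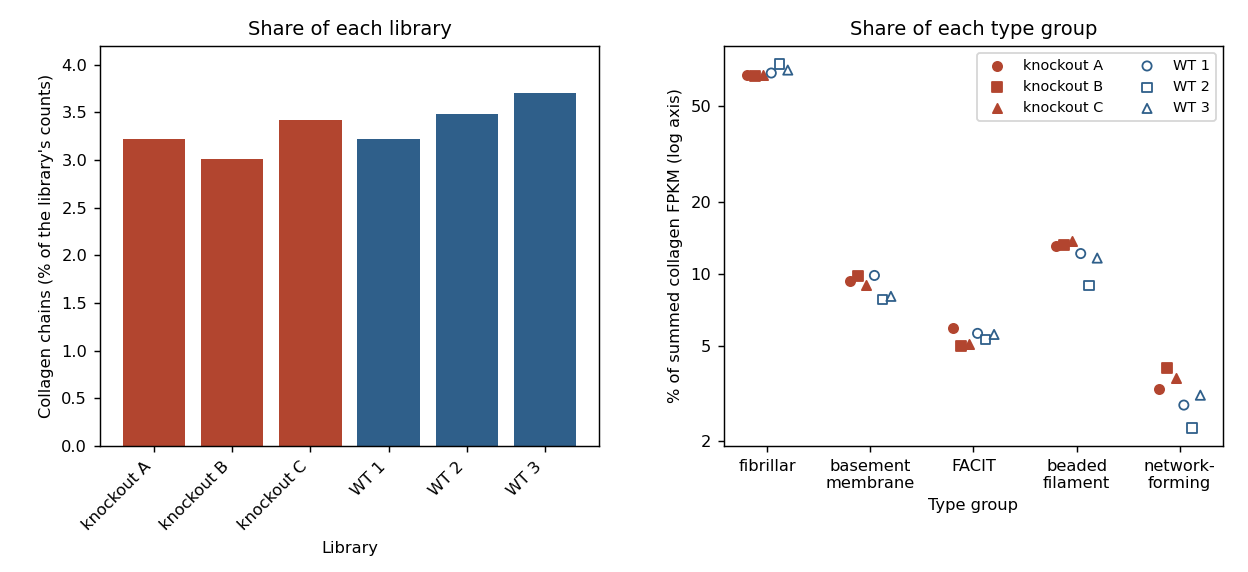
Left, the share of each library's counts held by the 44 collagen chains, as 1 bar per library (%). Right, the share of the summed collagen FPKM held by the 5 most abundant type groups, as 1 point per library on a log axis. Collagen took 3.02% to 3.71% of the counts, and WT 2 had the highest fibrillar share at 75.1%.

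Of the 44 chains, 33 passed the filter on low counts and were tested, and 0 of these passed the threshold of 0.05 on the adjusted p (edgeR), 0 higher and 0 lower in knockouts. Of all 15478 tested genes, 0.103% passed, 0.0581% higher and 0.0452% lower in knockouts. An unadjusted p below 0.05 was found for 12 chains, 4 higher and 8 lower in knockouts, or 36.4% of those tested, against 16.6% of all genes (8.35% higher and 8.22% lower). These 12 were 8 of 11 fibrillar chains (3 higher, 5 lower), 2 of 7 FACIT chains and 1 of 3 basement membrane chains, all lower, and 1 of 3 network-forming chains, higher. None of the 4 tested beaded filament chains was among them. Among the 33 chains, the median log2 fold change was 0.01 and the median of its absolute size 0.24. Over all tested genes these medians were 0.00 and 0.11. Among chains of at least 10 FPKM, 8 of 18 had an unadjusted p below 0.05, and 961 of 4833 did among all genes of that level (19.9%). Differences thus ran in both directions within the family. The FPKM values of the genotypes did not overlap for 8 of the 33 chains (24.2%, against 21.8% of all tested genes, 11.1% higher and 10.7% lower), a share near that of all genes. Lower in knockouts without overlap were Col1a1, Col2a1, Col5a1, Col7a1, Col14a1 and Col16a1, and higher were Col5a3 and Col24a1. By TMM-scaled counts, on which 21.9% of all tested genes did not overlap, Col27a1 was also without overlap and higher in knockouts. Calls depended on the tool and the libraries, among all genes as well as among the chains. DESeq2 passed 4 of 37 chains (Col2a1, Col5a1 and Col11a1 lower, Col5a3 higher), against 2.85% of all genes. With no filter on low counts edgeR passed 8 of 44 chains, against 3.20% of all genes. Without WT 3 it passed Col2a1 and Col14a1 of 34 chains, against 1.10% of all genes, and without WT 2 it passed Col2a1 of 33, against 0.288%.

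**Figure D2:**
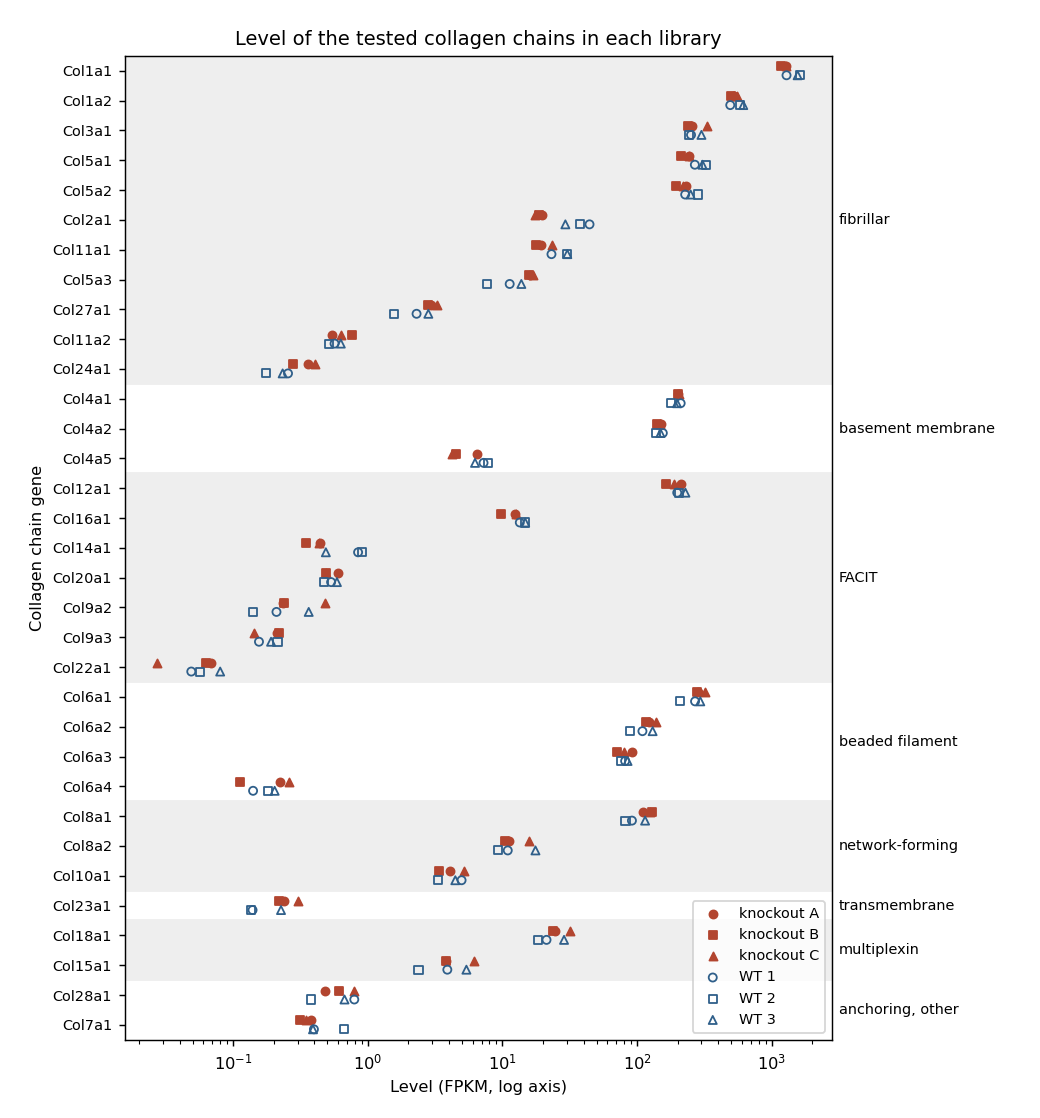
Level of each of the 33 tested collagen chains (FPKM, log axis), by type group, with 1 point per library (filled for knockouts A, B and C, open for WT 1, 2 and 3). Col1a1 is highest, at 1165 to 1620 FPKM, and the knockout points of Col2a1 lie left of all WT points.

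**Figure D3:**
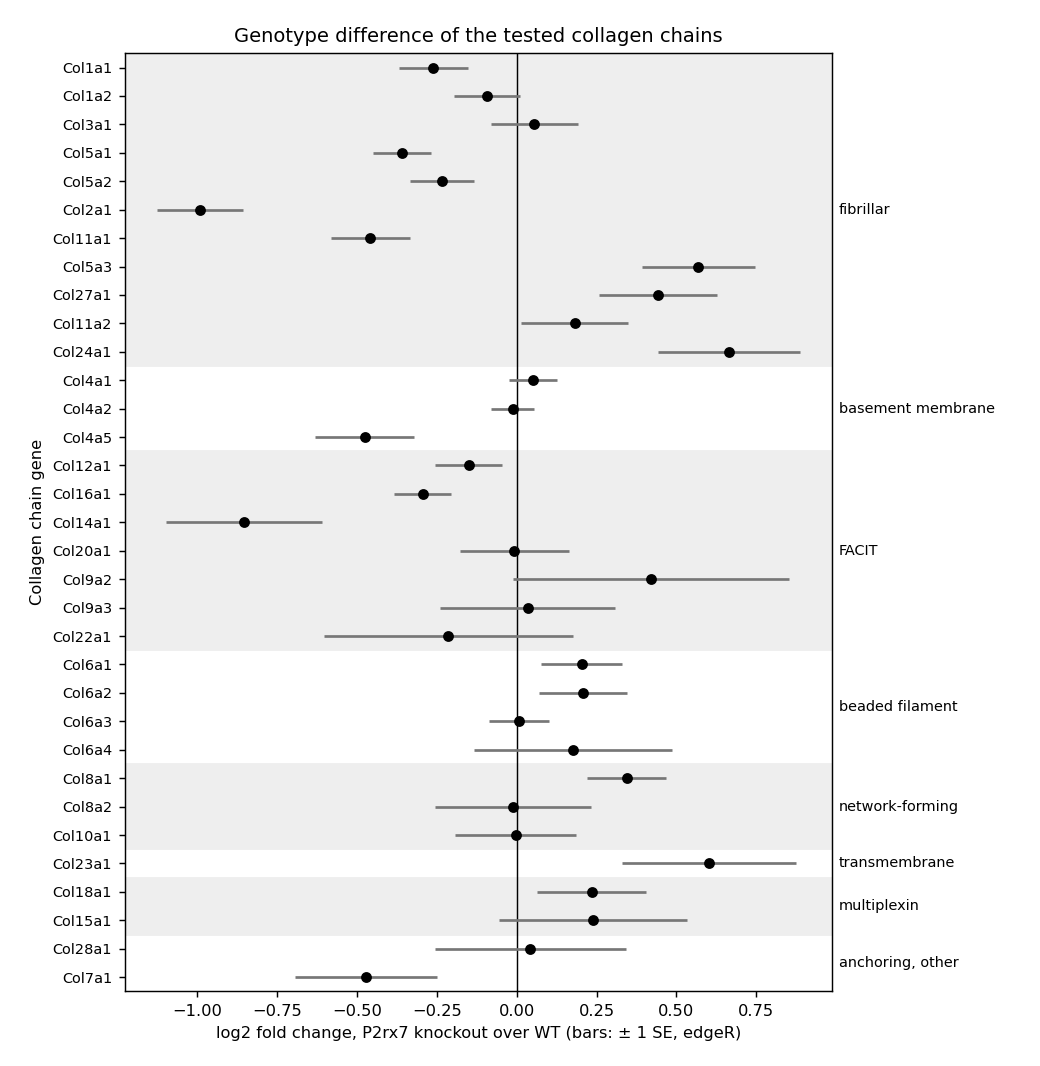
Log2 fold change of knockout over WT (horizontal axis) for the 33 tested chains, by type group, with bars of 1 SE from edgeR. Fibrillar chains stand on both sides of 0, Col2a1 at -0.99 and Col24a1 at 0.67, and 0 of the 33 passed the adjusted threshold.

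Col2a1, the chain of type II collagen, the main fibrillar collagen of cartilage, had the smallest p of the family. Its level was 19.5, 18.6 and 17.5 FPKM in knockouts A, B and C, against 44.3, 37.4 and 29.3 FPKM in WT 1, 2 and 3. The knockouts lay close together below every WT mouse, and the WT mice differed more among themselves. The log2 fold change was -0.99 ± 0.14 (SE), or 0.503 times the WT level, and did not pass (adjusted p = 0.0619, edgeR). Without WT 3 the adjusted p was 0.00781 (edgeR, log2 fold change -1.14), and without WT 2 it was 0.049993 (-0.99). Leaving out any other library gave 0.0948 to 0.283 (edgeR). Among the 4 libraries with more Gh than Alb counts, with knockout A alone against the WT mice, the log2 fold change was -0.93 (adjusted p = 0.969, edgeR). Genes known from cartilage differed in level, some at or near 0 and others detected. Acan, the aggrecan core protein, was at 0 to 0.0200 FPKM, Snorc was listed at 0 in every library, and Col9a1, a surface chain of cartilage fibrils, had 1 count in all 6 libraries together. Of the 9 chondrocyte markers 4 could be tested, and their summed level was 24.0 to 34.4 FPKM in knockouts and 10.03 to 20.8 FPKM in WT mice, mostly from Comp, a matrix protein also made in tendon. Their part in the Col2a1 difference was not tested. Comp was at 23.6 ± 6.26 FPKM in knockouts and 10.5 ± 5.02 FPKM in WT mice (SD, n = 3 each; log2 fold change 1.18, adjusted p = 0.188, edgeR). Matn3, a cartilage matrix protein, was at 0.229 ± 0.0796 FPKM in knockouts and 0.470 ± 0.269 FPKM in WT mice, and its log2 fold change of -0.995 did not pass (adjusted p = 0.363, edgeR). Matn1, of the same family, had a log2 fold change of 0.58 (adjusted p = 0.501, edgeR). Sox9 is the transcription factor known to drive Col2a1 in cartilage. It was at 3.56 ± 0.759 FPKM in knockouts and 4.57 ± 0.810 FPKM in WT mice. Its log2 fold change was -0.35 (adjusted p = 0.355, edgeR), so that 2 of the 4 tested markers were positive and 2 negative.

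The fibrillar chains share 1 feature that their symbols do not state, a long uninterrupted glycine repeat. All 44 chains had a coding sequence in GENCODE M21 (GRCm38). In the longest coding transcript, 9 of the 11 fibrillar chains held an unbroken run of 337 to 344 Gly-X-Y triplets, and the other 2, Col24a1 and Col27a1, held 216 and 217. The longest run in a chain outside the fibrillar group was 113 triplets, in Col9a1, Col9a2, Col9a3 and Col22a1. Type IV chains were interrupted often, with longest runs of 39 to 66 triplets although 75.2% to 79.5% of their residues lay in such repeats. Col12a1 held only 8.19% of its residues in repeats. The coding bases at the start of the longest run are shown for Col2a1, for Col1a1 as the most abundant chain, and for Col5a1, Col5a3 and Col11a1, so that the shared frame can be seen in chains of both directions, and capitals mark the glycine codon (GGN) that opens each Gly-X-Y triplet. They lie at chr15:97996648-97997320 (minus strand, exons 8 and 9), chr11:94939451-94939741 (plus, exons 6 and 7), chr2:27964080-27965259 (plus, exons 14 and 15), chr9:20801113-20801260 (minus, exons 14 and 15) and chr3:114105402-114108289 (plus, exons 14 and 15), and each is 54 coding bases with the intron left out.
Col2a1: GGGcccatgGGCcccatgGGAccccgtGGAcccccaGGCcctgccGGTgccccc
Col1a1: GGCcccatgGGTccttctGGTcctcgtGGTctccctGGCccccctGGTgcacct
Col5a1: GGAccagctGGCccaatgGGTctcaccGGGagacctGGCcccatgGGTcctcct
Col5a3: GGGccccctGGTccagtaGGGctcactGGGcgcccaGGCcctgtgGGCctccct
Col11a1: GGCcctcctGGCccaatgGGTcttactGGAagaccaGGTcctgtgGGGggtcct

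Type I collagen, the main protein of bone matrix, was the most abundant. Col1a1 was at 1270.5, 1165 and 1272 FPKM in knockouts A, B and C, against 1289, 1620 and 1559 FPKM in WT 1, 2 and 3 (log2 fold change -0.26 ± 0.11 SE, adjusted p = 0.28, edgeR). The knockouts were below all WT mice, but knockout C and WT 1 differed by little. Its partner Col1a2 was at 523.9, 498 and 549.8 FPKM in those knockouts, against 492, 579 and 615 FPKM in those WT mice, and the genotypes overlapped (log2 fold change -0.09, adjusted p = 0.693, edgeR). Col3a1, the chain of type III collagen that accompanies type I in soft tissue, was at 274 ± 47.8 FPKM in knockouts and 265 ± 31.4 FPKM in WT mice. Its log2 fold change was 0.06 ± 0.14 (adjusted p = 0.881, edgeR).

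The 3 chains of type V collagen, which starts and limits the width of type I fibrils, did not move alike. Col5a1 was at 242, 211 and 242 FPKM in knockouts A, B and C, against 269, 323 and 306 FPKM in WT 1, 2 and 3. Col5a2 was at 232, 194 and 218 FPKM in these knockouts, against 228, 285 and 250.01 FPKM in these WT mice. Col5a3, a chain of more restricted expression, was at 15.9, 15.7 and 16.9 FPKM in the knockouts, against 11.3, 7.72 and 13.8 FPKM in the WT mice. Col5a1 was lower and Col5a3 higher in every knockout than in every WT mouse, and Col5a2 overlapped. The log2 fold changes were -0.36 ± 0.09, -0.24 ± 0.10 and 0.57 ± 0.18 (SE; adjusted p = 0.159, 0.29 and 0.2, edgeR). Col5a3 varied between WT mice, and its log2 fold change was 0.365 without WT 2 and 0.772 without WT 3, against 0.57 with all mice. The 250 bases before the RefSeq gene start are given for Col5a1 (chr2:27886175-27886424, plus strand, GRCm38.p6) and Col5a3 (chr9:20815068-20815317, minus strand), with capitals marking the letters GGGCGG and CCAAT on either strand. Col5a1 held 2 matches to GGGCGG and 0 to CCAAT, and Col5a3 held 2 and 1. RefSeq windows were found for 35 of the 44 chains. GGGCGG occurred in 22 of their 38 windows (57.9%), against 32.7% of all 32851 promoter windows of that length, and CCAAT in 34.2% against 33.8%. TATAAA was found in 13.2% of the windows, against 12.4% of all.
Col5a1: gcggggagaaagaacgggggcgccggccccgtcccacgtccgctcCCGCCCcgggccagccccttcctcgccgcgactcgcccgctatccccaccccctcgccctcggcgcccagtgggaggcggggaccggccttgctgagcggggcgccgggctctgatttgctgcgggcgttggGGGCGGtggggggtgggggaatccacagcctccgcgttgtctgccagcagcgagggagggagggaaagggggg
Col5a3: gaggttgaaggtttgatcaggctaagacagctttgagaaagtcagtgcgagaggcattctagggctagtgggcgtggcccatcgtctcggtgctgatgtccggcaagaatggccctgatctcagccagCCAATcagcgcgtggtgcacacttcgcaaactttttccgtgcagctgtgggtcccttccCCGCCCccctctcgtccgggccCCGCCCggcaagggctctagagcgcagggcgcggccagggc

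The other fibrillar chains fell on both sides of 0. Col11a1, which nucleates cartilage fibrils with type II collagen and is also made by stromal cells, was at 19.4, 17.9 and 23.2 FPKM in knockouts A, B and C, against 23.1, 30.2 and 30.3 FPKM in WT 1, 2 and 3. Knockout C overlapped WT 1 by a narrow margin (log2 fold change -0.46 ± 0.12 SE, adjusted p = 0.169, edgeR). Col11a2 stayed under 1 FPKM in every library, with 78 to 100 counts. The distantly related fibrillar chain genes Col24a1 and Col27a1 had positive values. Col24a1 was at 0.361, 0.276 and 0.405 FPKM in knockouts A, B and C, against 0.255, 0.176 and 0.233 FPKM in WT 1, 2 and 3 (log2 fold change 0.67 ± 0.22 SE, adjusted p = 0.219, edgeR). This rests on 31 to 62 counts per library. Col27a1 was at 3.01 ± 0.234 FPKM in knockouts and 2.23 ± 0.625 FPKM in WT mice (SD, n = 3 each; adjusted p = 0.285, edgeR).

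Basement membrane chains divided into an abundant pair and rare ones. Col4a1 was at 200.02, 201 and 205 FPKM in knockouts A, B and C, against 211, 179.8 and 198 FPKM in WT 1, 2 and 3. Col4a2, its obligate partner in the common type IV trimer, was at 149.5, 139.98 and 147 FPKM in those knockouts, against 155, 138 and 149 FPKM in those WT mice. The genotypes overlapped, and these were the steadiest of the tested chains, with coefficients of variation over the 6 libraries of 5.27% and 4.37%. Their genes lie head to head on chromosome 8, Col4a1 at 11198423 to 11312826 on the minus strand and Col4a2 at 11312805 to 11449287 on the plus strand. Their annotated exons share 22 bases, and reads from there cannot be told apart where strand was not used. Col4a5, on the X chromosome, was at 6.47, 4.51 and 4.22 FPKM in knockouts A, B and C, against 7.23, 7.81 and 6.25 FPKM in WT 1, 2 and 3. Knockout A lay above WT 3, while knockouts B and C lay below every WT mouse (log2 fold change -0.48 ± 0.155 SE, adjusted p = 0.212, edgeR). The log2 fold change was -0.14 with the Gh or Alb set as a term in the fit. The low knockouts B and C are the 2 with albumin traces, and for them set and genotype cannot be told apart.

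The other type IV genes were close to the limit of detection. Col4a6 is the head-to-head neighbour of Col4a5, with 1308 bases between their annotated starts and both on chromosome X. Its counts were 3 in knockout A, 4 in knockout B and 3 in knockout C, against 8, 8 and 12 in WT 1, 2 and 3, and was not tested. Col4a3 and Col4a4, which face each other across 71 bases of chromosome 1, had 1 to 8 and 4 to 13 counts per library. A head-to-head arrangement was thus found with similar levels in Col4a1 and Col4a2, and with mean levels over the 6 libraries of 6.08 FPKM in Col4a5 and 0.0368 FPKM in Col4a6.

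FACIT collagens, which attach to fibrils by a short helix and extend globular domains, were led by Col12a1, abundant in tendon and stressed connective tissue. It was at 214, 165 and 188 FPKM in knockouts A, B and C, against 199, 205 and 229 FPKM in WT 1, 2 and 3, and overlapped between genotypes (log2 fold change -0.15 ± 0.105 SE, adjusted p = 0.508, edgeR). With the Gh or Alb set as a term it was 0.015. Col16a1, a minor chain found beside fibrils, was at 12.4, 9.82 and 12.6 FPKM in those knockouts, against 13.4, 14.7 and 14.7 FPKM in those WT mice. Every knockout was below every WT mouse (log2 fold change -0.30 ± 0.09 SE, adjusted p = 0.196, edgeR). Col14a1, a regulator of fibril growth, was at 0.444, 0.345 and 0.433 FPKM in the knockouts, against 0.845, 0.899 and 0.487 FPKM in the WT mice. WT 3 lay close to the knockouts, and WT 1 and WT 2 were about 2-fold above the knockout mean (log2 fold change -0.85 ± 0.245 SE, adjusted p = 0.188, edgeR). Without WT 3 the log2 fold change was -1.09 (adjusted p = 0.0473, edgeR), and leaving out any other library gave -0.914 to -0.694 with adjusted p-values of 0.225 to 0.52 (edgeR). Col20a1, Col9a2, Col9a3 and Col22a1 stayed under 1 FPKM and had adjusted p-values of 0.669 to 0.989. Col9a3 shares 234 exon bases with Tcfl5 on the other strand and Col20a1 shares 79 with 9230112E08Rik, so their low counts are uncertain.

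The chains of type VI collagen, which forms beaded filaments around cells, did not pass. Col6a1 was at 286, 278 and 322 FPKM in knockouts A, B and C, against 269.6, 209 and 295 FPKM in WT 1, 2 and 3. Col6a2 was at 122, 116 and 139 FPKM in those knockouts, against 109.6, 88.1 and 130.4 FPKM in those WT mice. In both genes WT 2 was lowest and knockout C highest, and the log2 fold changes were 0.20 ± 0.13 and 0.21 ± 0.14 (SE; adjusted p = 0.463 and 0.49, edgeR). Without WT 2 both were 0.07, and without WT 3 they were 0.31 and 0.35. Col6a3, the large remaining chain of the trimer, was at 80.8 ± 10.2 FPKM in knockouts and 80.8 ± 4.58 FPKM in WT mice (SD, n = 3 each). The related chains Col6a4, Col6a5 and Col6a6 were rare. Col6a4 had 18 to 44 counts per library and Col6a6 had 0 to 3. Col6a5 had 4 counts in knockout A, 3 in knockout B, 2 in knockout C and 0 in every WT mouse. A count of 0 allows up to 3 counts in a library, so these values of Col6a5 give no fold change. Col6a1 and Col6a2 lie on the same strand of chromosome 10 with 85.2 kb between them.

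Among network-forming chains, Col8a1, found in vessel walls and stroma, was at 111, 128 and 125 FPKM in knockouts A, B and C, against 91.6, 82.0 and 115 FPKM in WT 1, 2 and 3. Knockout A was below WT 3, so the genotypes overlapped (log2 fold change 0.345 ± 0.12 SE, adjusted p = 0.236, edgeR). With the Gh or Alb set as a term it was 0.203. Its partner Col8a2 was at 11.2, 10.4 and 15.8 FPKM in those knockouts, against 10.9, 9.31 and 17.6 FPKM in those WT mice, with WT 2 lowest and WT 3 highest. Col10a1, the collagen of hypertrophic chondrocytes, was at 4.21 ± 0.921 FPKM in knockouts and 4.25 ± 0.847 FPKM in WT mice (SD, n = 3 each). Col10a1 shares 18 exon bases with Nt5dc1, a gene on the other strand with more counts. The multiplexins Col18a1, whose end yields endostatin, and Col15a1 are found in vessel basement membranes. Col18a1 was at 24.7, 23.6 and 31.5 FPKM in knockouts A, B and C, against 21.2, 18.3 and 28.7 FPKM in WT 1, 2 and 3. Col15a1 was at 3.83, 3.77 and 6.10 FPKM in those knockouts, against 3.89, 2.37 and 5.39 FPKM in those WT mice. In both, knockout C and WT 3 were the highest library of their genotype and the genotypes overlapped (log2 fold changes 0.24 and 0.24; adjusted p = 0.523 and 0.729, edgeR). For Col18a1 the log2 fold change was 0.094 without knockout C, 0.096 without WT 2, 0.436 without WT 3 and 0.116 with the Gh or Alb set as a term. For Col15a1 it was -0.027 without knockout C, -0.024 without WT 2, 0.554 without WT 3 and -0.027 with that term. The endothelial markers had their highest summed levels in the same libraries, at 27.4 FPKM in knockout C and 28.7 FPKM in WT 3, against 14.3 and 23.7 FPKM in knockouts A and B and 13.97 and 16.3 FPKM in WT 1 and 2. All 7 of them were detected, and their part in these chains was not tested.

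Chains of epithelial and transmembrane types were scarce. Col7a1, the anchoring fibril collagen of skin, was at 0.378, 0.312 and 0.349 FPKM in knockouts A, B and C, against 0.397, 0.659 and 0.391 FPKM in WT 1, 2 and 3 (log2 fold change -0.47 ± 0.22 SE, adjusted p = 0.335, edgeR). WT 1 and WT 3 were just above the knockouts and WT 2 stood apart. Without WT 2 the log2 fold change was -0.18, and without WT 3 it was -0.605. Col28a1 was at 0.479, 0.612 and 0.793 FPKM in those knockouts, against 0.792, 0.379 and 0.670 FPKM in those WT mice. The genotypes overlapped over nearly their whole range, and the log2 fold change of 0.04 was -0.356 with the Gh or Alb set as a term. Col23a1 was the one transmembrane chain tested, at 0.236, 0.220 and 0.304 FPKM in knockouts A, B and C, against 0.139, 0.136 and 0.226 FPKM in WT 1, 2 and 3 (log2 fold change 0.60 ± 0.27 SE, adjusted p = 0.316, edgeR). Knockout B was just below WT 3. Col17a1, the next transmembrane chain by level, had 6, 4 and 5 counts in those knockouts, against 2, 4 and 11 in those WT mice, and was not tested. The 11 untested chains had at most 13 counts in any library. They were Col4a3, Col4a4 and Col4a6, Col6a5 and Col6a6, Col9a1 and Col19a1, the transmembrane Col13a1, Col17a1 and Col25a1, and Col26a1.

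One WT mouse often lay at the end of the range. WT 2 was the highest of the 6 libraries for 6 of the 33 tested chains and the lowest for 17, so that it was at one end for 69.7% of chains, against 51.6% of all tested genes. The chains highest in WT 2 were Col1a1, Col5a1, Col5a2, Col4a5, Col7a1 and Col14a1. Those lowest in WT 2 included Col4a1, Col4a2, Col5a3, Col6a1, Col6a2, Col8a1, Col8a2, Col10a1, Col15a1, Col18a1, Col24a1 and Col27a1. Knockout B was lowest for 11 chains (33.3%, against 19.5% of all tested genes) and knockout C highest for 13 (39.4%, against 15.2%). Summed stromal, adipocyte, osteoblast, and smooth muscle and pericyte markers also placed WT 2 at the end of the range. Endothelial markers, at 16.3 FPKM in WT 2, did not. The stromal, adipocyte and osteoblast sums were also higher in every knockout than in every WT mouse, while the smooth muscle and pericyte sums overlapped. The summed stromal markers were 681, 799 and 782 FPKM in knockouts A, B and C, against 495, 297 and 567 FPKM in WT 1, 2 and 3. The summed adipocyte markers were 180.2 to 233 FPKM in knockouts, against 130.03, 51.1 and 119 FPKM in WT 1, 2 and 3. Smooth muscle and pericyte markers, almost all Acta2, were 1689.7, 1454 and 1281 FPKM in knockouts A, B and C, against 2004, 2371 and 1633 FPKM in WT 1, 2 and 3. In that list Acta2, Myh11, Tagln and Cspg4 had negative log2 fold changes, while Rgs5 and Notch3 had 1.06 and 0.42 (adjusted p = 0.24 and 0.293, edgeR). Genes known from pericytes thus went both ways, since Cspg4 is also 1 of them, at -0.55 (adjusted p = 0.195, edgeR). Osteoblast markers were 638 to 669 FPKM in knockouts and 521 to 626 FPKM in WT mice, lowest in WT 2, with Bglap (osteocalcin) at 0.490 FPKM or less. The highest of them was Spp1, at 447 to 531 FPKM, with a log2 fold change of 0.01 (adjusted p = 0.974, edgeR). Alpl and Sp7 had log2 fold changes of 0.75 and 0.55 (adjusted p = 0.208 and 0.192, edgeR). Of the 6 tested osteoblast markers, 5 were positive and 1 negative. Of these lists 0 members passed the threshold, and their part in the collagen differences was not tested.

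**Figure D4:**
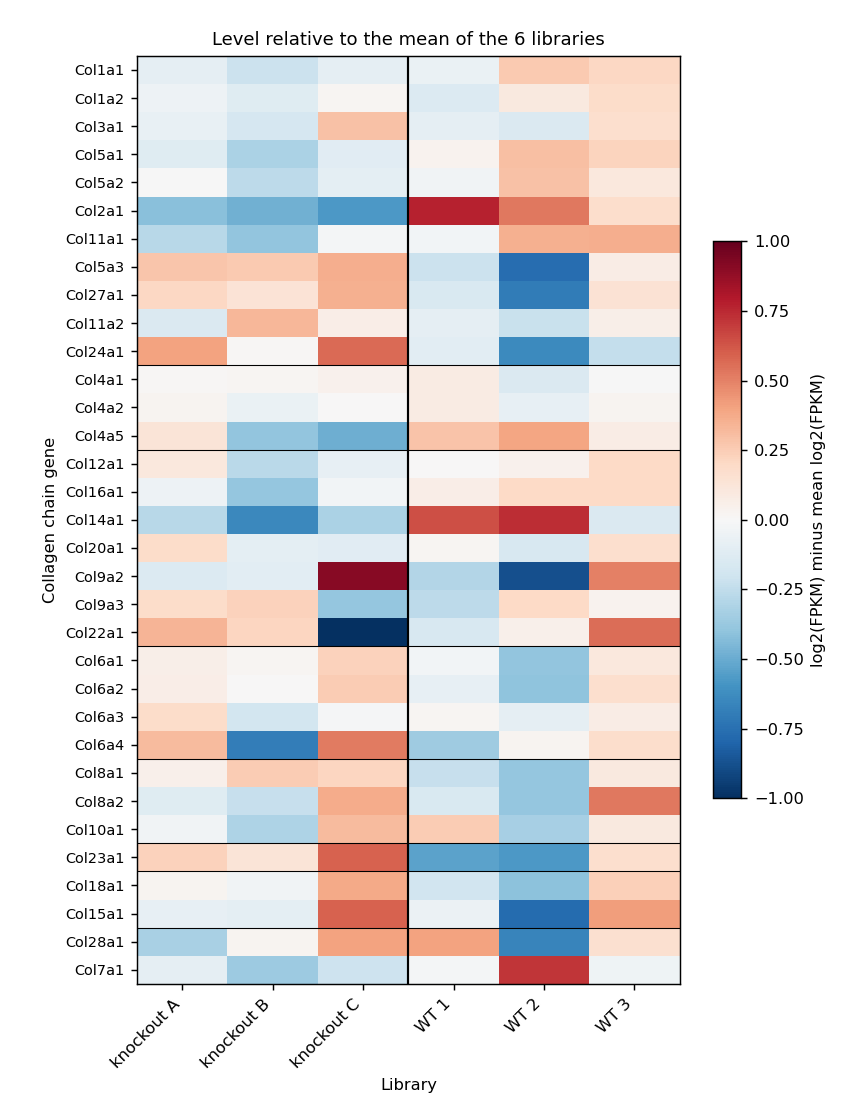
Level of each of the 33 tested chains in each library relative to its mean over the 6 libraries (colour, log2 FPKM difference, limited to 1 in each direction), knockouts left and WT mice right of the line. WT 2 is red for Col1a1, Col5a1 and Col5a2 and blue for 17 chains that are lowest there, and Col2a1 is blue in all 3 knockouts.

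Ratios of chains that share a trimer were compared within each library, where scaling has no effect. Col1a1 over Col1a2 was 2.43, 2.34 and 2.31 in knockouts A, B and C, against 2.62, 2.80 and 2.53 in WT 1, 2 and 3, with no overlap. Type I collagen is mostly built with more of the Col1a1 chain than of the Col1a2 chain. Col5a1 over Col5a2 was 1.04, 1.09 and 1.11 in those knockouts, against 1.18, 1.13 and 1.22 in those WT mice, also without overlap. Col11a1 over Col11a2 was 32.0 ± 7.31 in knockouts and 49.2 ± 8.86 in WT mice (SD, n = 3 each), again without overlap, with knockout B lowest at 23.6. In each of these ratios, singled out by their lack of overlap, the chain on top was lower in knockouts relative to its partner. The other ratios overlapped. Their mean log2 ratios were higher in knockouts by 0.065 for Col4a1 over Col4a2 and 0.337 for Col8a1 over Col8a2. They were lower for Col6a1 over Col6a2, Col6a3 over Col6a2 and Col9a3 over Col9a2. How often ratios of other gene pairs lack overlap was not determined. Col4a1 over Col4a2 stayed between 1.30 and 1.44 in all 6 libraries, and Col6a1 over Col6a2 between 2.26 and 2.46. The Col6a1 and Col6a2 levels each spanned over 0.6 on the log2 scale across libraries, while their ratio spanned 0.12. Col6a3 over Col6a2 was 0.646 ± 0.0926 in knockouts and 0.752 ± 0.105 in WT mice, and Col8a1 over Col8a2 was 10.1 ± 2.24 and 7.90 ± 1.21, both with overlap. Col9a3 over Col9a2 rested on 10 to 30 counts per chain and ranged between 0.295 and 1.53. Col9a1 had too few counts for a ratio. These 8 ratios are descriptions without a test.

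**Figure D5:**
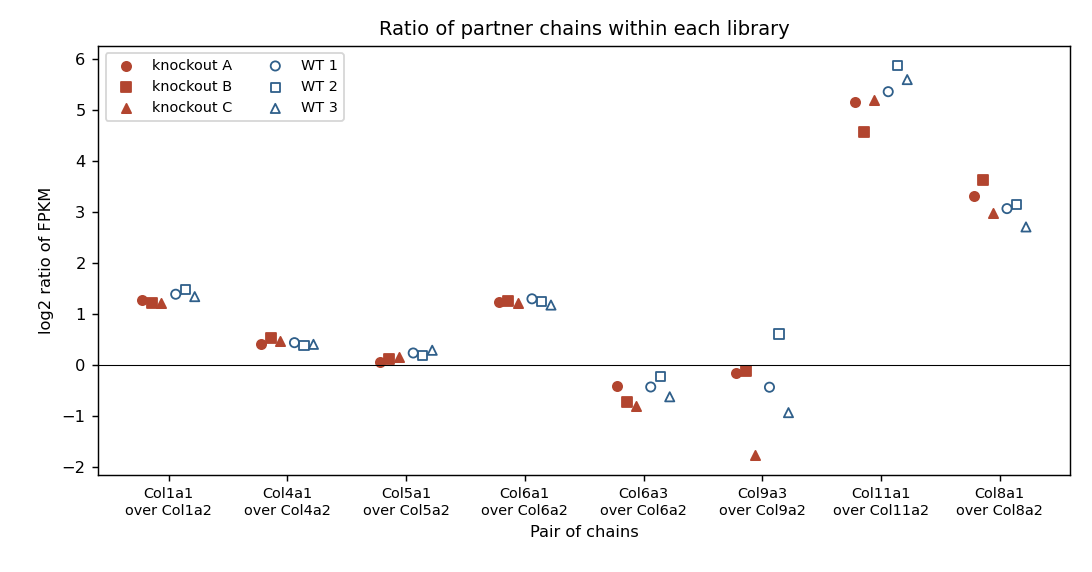
Log2 ratio of FPKM of partner chains (vertical axis) for 8 pairs, with 1 point per library, knockouts left of WT mice in each pair. The ratios of Col1a1 over Col1a2, Col5a1 over Col5a2 and Col11a1 over Col11a2 do not overlap between genotypes, while Col6a1 over Col6a2 stays between 2.26 and 2.46 on the linear scale.

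Genes that fold, modify, export and bind collagen were set beside the chains. Of 17 tested folding and modifying genes 0 passed in either direction (edgeR, over all genes), with a median log2 fold change of -0.11, 13 of them negative, as were 7554 of all 15478 genes. An unadjusted p below 0.05 was found for 6, all lower in knockouts, against 8.22% of all genes that were lower. Serpinh1, the collagen chaperone HSP47, was at 575, 529 and 522 FPKM in knockouts A, B and C, against 613, 631 and 588 FPKM in WT 1, 2 and 3 (adjusted p = 0.263, edgeR). P4hb, a subunit of prolyl 4-hydroxylase, was at 336, 320.4 and 329 FPKM in those knockouts, against 369, 401 and 351 FPKM in those WT mice, also without overlap (adjusted p = 0.241, edgeR). P3h4, which aids lysyl hydroxylation, and Fkbp10, a collagen-folding prolyl isomerase, had log2 fold changes of -0.37 and -0.22 (adjusted p = 0.182 and 0.229, edgeR). P3h4 was lower in every knockout than in every WT mouse, whereas knockout A overlapped WT 3 for Fkbp10. The FPKM values did not overlap for 4 of the 17 genes (23.5%), all lower in knockouts. Among all tested genes 21.8% did not overlap, 10.7% lower in knockouts.

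Of 16 tested genes of procollagen export, processing and cross-linking 0 passed, and 10 had an unadjusted p below 0.05, 3 higher and 7 lower in knockouts, against 8.35% and 8.22% of all genes. Lox, the enzyme that starts cross-links between lysines, was at 961, 729 and 779 FPKM in knockouts A, B and C, against 1024, 1115 and 1025 FPKM in WT 1, 2 and 3 (log2 fold change -0.35 ± 0.11 SE, adjusted p = 0.202, edgeR). Sec23a and Sec24d, coat proteins of the vesicles that carry procollagen, had log2 fold changes of -0.40 and -0.24 (adjusted p = 0.146 and 0.171, edgeR). Every knockout was below every WT mouse for Lox, Sec23a and Sec24d. The FPKM values did not overlap for 10 of the 16 genes, 3 higher and 7 lower in knockouts. Among all tested genes these shares were 11.1% and 10.7%. The 3 higher ones, named after their values were seen, were Bmp1, Adamts2 and Adamts3, which encode procollagen proteases. Their log2 fold changes were 0.22, 0.28 and 1.26 (adjusted p = 0.244, 0.199 and 0.199, edgeR), and every knockout was above every WT mouse. Other proteases of the list went the other way. Tll1 and Adamts14 had log2 fold changes of -0.88 and -0.35 (adjusted p = 0.264 and 0.456, edgeR), and Tll2 was not tested. Tll1, with 24 to 101 counts per library, was lower in every knockout than in every WT mouse, and Adamts14 overlapped. The value of Adamts3 rests on few reads, 10 to 15 per library except for 4 each in WT 1 and WT 2. Bmp1 and Adamts2 had at least 6918 and 4754 reads per library. The SE was 0.39 for Adamts3, against 0.08 for Bmp1 and 0.09 for Adamts2. Sparc, a collagen-binding matrix protein, was at 1224, 1184 and 1204 FPKM in knockouts A, B and C, against 1133, 1182 and 1257 FPKM in WT 1, 2 and 3, and overlapped. Of 11 collagen receptors 0 passed. Itga11, the integrin chain that binds type I collagen on stromal cells, was at 63.8, 62.2 and 75.0 FPKM in knockouts A, B and C, against 68.0, 109 and 104 FPKM in WT 1, 2 and 3, with WT 1 inside the knockout range. Itga1, which prefers type IV collagen, was at 7.89 ± 0.685 FPKM in knockouts and 5.18 ± 1.24 FPKM in WT mice (SD, n = 3 each; adjusted p = 0.167, edgeR). Itgb1, their common partner, was at 315 ± 24.0 FPKM in knockouts and 358 ± 32.7 FPKM in WT mice.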

How the data were processed

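The deposited table holds, per gene symbol, exon positions, summed exon length, FPKM and raw counts of 6 libraries. Per the labels' protocols, libraries were made from 1.3 µg of total RNA with a SMARTer mRNA kit. The submitters' processing notes name the builds GRCm38 and mm10. Which aligner and counter were run, and whether strand was used, is information not given in the sources used here. Deposited counts are whole numbers, and the authors' deposited FPKM values equal count over length over an effective library size (relative tolerance 1e-06). 

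Counts were analysed with edgeR 4.0.16 (filterByExpr, TMM, glmQLFit and glmQLFTest, two-sided) over 15478 genes, with Benjamini-Hochberg adjustment over all of them and a threshold of 0.05. The fit was tested on simulated data. Alternatives used limma 3.58.1 and DESeq2 1.42.0 in R 4.3.3. The labels number the WT mice and letter the knockouts, so no samples are paired. Members and lists were chosen with earlier results of these data known. Any chain may be named. Per-library values are given for the 8 chains of smallest p, the 2 of highest level in each type group (counts where a chain was not tested) and others whose pattern is described, and from the pathway lists the 2 genes of highest level and the 2 of smallest p are named. Coding sequences are from GENCODE M21, and promoter windows from RefSeq (GRCm38.p6). Precision from counting alone ignores duplicate reads, since the labels describe no molecular identifiers.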

Additional observations from a re-analysis of the deposited data

How the results depend on the processing

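The number of changed genes was 16 by edgeR with the filter on low counts on all libraries. It was 970 of 30301 with no filter, 512 of 17937 with DESeq2, and 10 and 2 with limma on log2(FPKM + 1) and log2(FPKM + 0.1). Among the libraries with more Gh than Alb counts, or with the Gh or Alb set as a term, knockout A alone stands against the WT mice. Counts of changed genes and adjusted p-values of these fits thus do not show whether a result is stable. Leaving out 1 library gave 0 to 172 changed genes. Of the collagen chains 0 passed by edgeR with the filter on all libraries. With no filter 8 of 44 passed, against 3.20% of all genes. Col2a1, Col5a1, Col11a1, Col14a1, Col16a1 and Col4a5 were lower there, and Col5a3 and Col8a1 higher. DESeq2 passed 4 of 37 chains (2.85% of all genes), and leaving out 1 library gave 0 to 2 chains. P2rx7 kept a log2 fold change of -0.69 to -0.65 leaving out 1 library, with an adjusted p of 0.0763 without knockout B and 0.0973 without knockout C (edgeR). It was -0.64 among libraries with more Gh than Alb counts and -0.64 with the set as a term, with adjusted p-values of 0.516 and 0.112 (edgeR). The cause was not tested. No paired analysis was possible because WT mice are numbered and knockouts lettered.

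The 22 named chains had 308 fold changes under 14 alternatives. Of these, 273 kept their direction and side of the threshold, 15 passed it and 20 changed sign. No chain passed by edgeR with the filter on all libraries, so keeping the side of the threshold meant only not passing it. The 14 alternatives include the fits by Gh and Alb counts, which rest on knockout A alone and do not show whether a result is stable. Among the libraries with more Gh than Alb counts and with the set as a term, the log2 fold changes were 0.012 and 0.015 for Col12a1, 0.011 and 0.014 for Col4a2, -0.03 and -0.027 for Col15a1, and -0.36 and -0.356 for Col28a1. With limma Col8a2 was at 0.009 and 0.011. Leaving out 1 library gave -0.013 to 0.105 for Col4a1, -0.062 to 0.025 for Col4a2, -0.027 to 0.554 for Col15a1, -0.221 to 0.306 for Col8a2 and -0.218 to 0.263 for Col28a1. The difference in collagen share, -0.25 percentage points, ranged between -0.37 and -0.13. Leaving out 1 library changed the sign of the log2 ratio difference for Col6a1 over Col6a2 (-0.0378 to 0.0232) and Col9a3 over Col9a2 (-0.767 to 0.115), but not for the other 6 pairs. The 11 untested chains had too few counts for a test.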
